A study of Mus musculus with 9 samples.

Results

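The genes described here are 32 mouse genes of cholesterol and fatty acid synthesis, out of 32761 genes in the deposited table. They were chosen by symbol, with earlier results of these data known. They are 5 enzymes that make and activate mevalonate, 3 of the isoprenoid steps, 3 that build squalene and lanosterol, 8 that turn lanosterol into cholesterol, 5 proteins that sense or carry sterols, and 8 genes of fatty acid synthesis. The first 4 of these groups are called below the 19 sterol and isoprenoid enzymes. All 32 genes passed the filter on low values, a mean of at least 0.5 FPKM over the 9 libraries. FPKM, the deposited unit, divides a gene's fragments by its transcript length and by the mapped total of the library, so that levels of different genes can be set side by side.

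RNA was sequenced from 9 tumours, 3 in each of 3 groups, all grown in mice from Hepa1-6-luc, a mouse hepatoma line that carries luciferase, and all taken on day 14. Mice of the Co+Len@OVA+anti-PD1 group were given a nanocluster labelled Co+Len@OVA at 2 mg/mL every 3 days, with 50 µg of an antibody against PD1 every 4 days. Mice of the Lenvatinib+anti-PD1 group were given free lenvatinib, an inhibitor of the VEGF and FGF receptor kinases, matched to the nanocluster's concentration and on the same days, with the same antibody. The labels do not say what Control mice were given, what Co stands for, or the strain, sex and age of the mice. The tumours come from 1 cell line, and each library is a whole piece of tumour, which can hold other cells, such as immune and vessel cells. No sequenced group was given drug or antibody alone, so the parts of either treatment cannot be told apart.

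Cholesterol synthesis starts from acetyl-CoA, passes through mevalonate and the isoprenoid units to squalene and lanosterol, and ends in a chain of reactions in the endoplasmic reticulum. The SREBP transcription factors, encoded by Srebf1 and Srebf2, sit in that membrane bound to Scap. When sterols are plentiful the Insig proteins hold this complex back, and when sterols run low it moves to the Golgi, where the factors are cut free and go on to activate genes of sterol and fatty acid synthesis, together with NF-Y, which binds CCAAT, and Sp1, which binds GC boxes. Liver is a main site of both pathways.

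The promoters of 5 of these genes are printed because they cover the range of responses described below: Hmgcs1, Idi1 and Sc5d, whose RNA was high in Lenvatinib+anti-PD1 tumours alone, Lss, which was low in Co+Len@OVA+anti-PD1 tumours alone, and Fasn, whose RNA varied most between the Lenvatinib+anti-PD1 libraries among these 5. Each window holds 250 bases before and 50 after a start site, is read 5′ to 3′ on the gene's strand, and comes from RefSeq on build GRCm38.p6. They are chr13:119690101-119690400 on the plus strand for Hmgcs1, chr13:8885356-8885655 on the plus strand for Idi1, chr9:42264251-42264550 on the minus strand for Sc5d, chr10:76531355-76531654 on the plus strand for Lss, and chr11:120824498-120824797 on the minus strand for Fasn. Capitals mark CCAAT on either strand, written ATTGG on the other strand, and the sterol regulatory element TCACNCCAC on either strand.
Hmgcs1: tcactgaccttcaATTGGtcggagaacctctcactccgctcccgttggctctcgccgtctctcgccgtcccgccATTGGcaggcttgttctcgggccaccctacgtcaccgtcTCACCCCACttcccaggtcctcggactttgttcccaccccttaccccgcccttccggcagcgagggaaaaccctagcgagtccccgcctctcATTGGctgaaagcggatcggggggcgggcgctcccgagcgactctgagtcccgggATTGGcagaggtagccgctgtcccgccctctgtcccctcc
Idi1: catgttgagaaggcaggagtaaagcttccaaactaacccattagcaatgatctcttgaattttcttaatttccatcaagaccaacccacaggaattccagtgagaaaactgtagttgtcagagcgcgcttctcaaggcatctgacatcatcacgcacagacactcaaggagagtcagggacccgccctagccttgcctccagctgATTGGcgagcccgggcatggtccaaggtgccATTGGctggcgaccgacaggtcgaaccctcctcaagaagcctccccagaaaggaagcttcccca
Sc5d: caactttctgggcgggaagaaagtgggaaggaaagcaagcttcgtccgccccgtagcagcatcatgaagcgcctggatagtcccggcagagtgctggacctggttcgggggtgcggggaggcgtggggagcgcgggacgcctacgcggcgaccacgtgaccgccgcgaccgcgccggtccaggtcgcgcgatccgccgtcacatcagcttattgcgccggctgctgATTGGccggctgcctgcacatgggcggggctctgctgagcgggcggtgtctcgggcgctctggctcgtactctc
Lss: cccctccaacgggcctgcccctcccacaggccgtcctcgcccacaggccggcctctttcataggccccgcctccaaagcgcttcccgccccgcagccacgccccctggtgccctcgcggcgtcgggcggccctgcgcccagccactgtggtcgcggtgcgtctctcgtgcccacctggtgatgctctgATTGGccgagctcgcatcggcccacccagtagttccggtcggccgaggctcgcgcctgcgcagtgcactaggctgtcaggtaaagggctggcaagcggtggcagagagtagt
Fasn: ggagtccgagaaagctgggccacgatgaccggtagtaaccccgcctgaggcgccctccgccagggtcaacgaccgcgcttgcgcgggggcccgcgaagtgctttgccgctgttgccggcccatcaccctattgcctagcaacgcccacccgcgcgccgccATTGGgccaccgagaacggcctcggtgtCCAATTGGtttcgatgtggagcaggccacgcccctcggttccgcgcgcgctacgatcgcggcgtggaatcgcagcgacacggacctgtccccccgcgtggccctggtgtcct

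In the Hmgcs1 window the sterol element reads TCACCCCAC and begins at position -137, with the start site's first base at 0, between CCAAT boxes that begin at -176 and -45. The Idi1, Sc5d and Lss windows hold CCAAT boxes that begin at -45 and -14, at -24, and at -62. In the Fasn window 1 box begins at -90, and a pair overlaps in the letters CCAATTGG at -62. RefSeq windows were used for 26 of the 32 genes. Windows on chromosome 18, where Stard4 lies, were left out for the 32 genes, a limit not set for the genes they are compared with. Of these 26, 22 hold CCAAT in at least 1 window (84.6%), against 41.1% of all 27025 genes with windows. Those 27025 were not limited to genes that passed the filter on low values, as the members were. The GC box GGGCGG was in 21 of the 26 (80.8%), against 38.2% of all genes, and the E-box CACGTG in 5 (19.2%), against 8.09%. TCACNCCAC was in 1 of the 26 (3.85%), against 1.44% of all genes. Both strands were searched for every motif. These matches describe letters only and were not tested against expression.

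Column totals ran from 3.32e+05 to 3.73e+05 FPKM. Mitochondrially encoded genes took 12.3% to 12.8% of the total in the Co+Len@OVA+anti-PD1 libraries, 16.3% to 17.9% in those of Lenvatinib+anti-PD1, and 11.1% to 13.2% in those of Control, and read depth is unknown. The hepatoma marker Afp stood at 233 to 239.7 FPKM in Co+Len@OVA+anti-PD1, 339 to 385 in Lenvatinib+anti-PD1 and 368 to 439 in Control, so RNA of this marker was present in every library. Afp made up most of the sum of the 5 hepatoma markers listed. In each group the third library had values between those of libraries 1 and 2 for most genes in which these 2 were far apart. Where libraries 1 and 2 differed more than 4-fold in a gene, the value in library 3 was the middle one in 97.5% of 278 such genes (Co+Len@OVA+anti-PD1), in 97.5% of 284 (Lenvatinib+anti-PD1) and in 94.9% of 350 (Control). Of the 32 genes described here, the third value was between for 20 in Co+Len@OVA+anti-PD1, 17 in Lenvatinib+anti-PD1 and 22 in Control. If the third libraries are not independent tumours, the p-values from 9 libraries are too small, so each comparison is also given from libraries 1 and 2 alone.

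In Lenvatinib+anti-PD1 tumours most of the pathway was higher than in Control. Of the 32 genes 19 rose and 0 fell, where "rose" and "fell" mean an adjusted p under 0.05 in limma after Benjamini-Hochberg adjustment over 15353 genes. Over all genes tested, 13.8% rose and 9.87% fell in the same comparison, 23.7% in either direction. At an unadjusted p under 0.05 the counts of the 32 were 20 higher and 0 lower. For the fit of 9 libraries the share of all genes at an unadjusted p was not computed. Unadjusted counts from it, here and below, are therefore not to be set against the adjusted shares. The median log2 fold change, on log2(FPKM + 0.5), was 0.42 over the 32 genes and 0.05 over all genes. The rise covered 13 of the 19 sterol and isoprenoid enzymes, with a median of 0.61, and 6 of the 8 fatty acid genes, with a median of 0.70, but 0 of the 5 sterol sensing genes, 0 of which passed an unadjusted p under 0.05 either. In whole tumours, fewer cells of a type and less RNA per cell cannot be told apart.

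Libraries 1 and 2 alone left 0 of the 19 calls in limma, in a fit with 3 residual degrees of freedom that called 0.346% of all genes in either direction. The median over the 32 genes was then 0.41, and 15 genes were higher and 0 lower at an unadjusted p under 0.05, against 9.92% higher and 6.78% lower over all genes. Leaving out each of the 9 libraries in turn, 11 of the 19 stayed called every time, 10 of them sterol and isoprenoid enzymes and the other Elovl6. The other 8 all lost the call without Lenvatinib+anti-PD1 library 3, and 7 of them, all but Me1, also without Control library 3. Over the 9 fits their adjusted p reached 0.0692 for Sqle, 0.0613 for Tm7sf2, 0.0672 for Nsdhl, 0.127 for Acss2, 0.0560 for Me1, 0.0675 for Acaca, 0.0716 for Fasn and 0.0776 for Scd1. Leaving out Lenvatinib+anti-PD1 library 3 left 11 of the 32 genes called higher, and leaving out Control library 3 left 12.

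Co+Len@OVA+anti-PD1 tumours, set against Lenvatinib+anti-PD1 tumours, were lower for most of the pathway. Of the 32 genes 0 rose and 22 fell, where 17.3% of all genes rose and 12.0% fell, 29.4% in either direction. At an unadjusted p under 0.05, for which no share of all genes was computed, the counts were 2 higher, Ggps1 and Scap, and 24 lower. The median log2 fold change was -0.53 over the 32 genes and 0.07 over all genes. The fall took in 15 of the 19 sterol and isoprenoid enzymes (median -0.60), 2 of the 5 sterol sensing genes and 5 of the 8 fatty acid genes (median -0.71). This comparison and the one before share the Lenvatinib+anti-PD1 libraries, so their fold changes are not independent of each other.

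Libraries 1 and 2 alone left 1 of these 22 calls, Hmgcs1, with a log2 fold change of -0.80 and a limma adjusted p of 0.0456, where 2.41% of all genes were called in either direction. At an unadjusted p under 0.05 these libraries gave 0 genes higher and 16 lower, against 10.4% and 8.26% over all genes, and a median of -0.49. With each library left out in turn, 14 of the 22 stayed called every time, 11 of them sterol and isoprenoid enzymes. The other 8 all lost the call without Co+Len@OVA+anti-PD1 library 3, which left 14 genes called lower. Over the 9 fits their adjusted p reached 0.141 for Mvd, 0.125 for Sqle, 0.0506 for Tm7sf2, 0.0889 for Dhcr7, 0.0907 for Srebf1, 0.0721 for Acss2, 0.0827 for Acaca and 0.0627 for Fasn.

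Between Co+Len@OVA+anti-PD1 and Control few of the genes were called, in both directions. Of the 32 genes 5 rose and 5 fell, where 20.9% of all genes rose and 12.7% fell (33.6% in either direction), so the members' shares were near or under those of all genes. The median was -0.02 over the 32 genes and 0.13 over all genes. Fdps, Cyp51, Ebp, Dhcr7 and Me1 rose, and Mvd, Lss, Nsdhl, Hsd17b7 and Scd2 fell. Median-of-ratios scaling put the median of all genes at 0.02 in place of 0.13, and then Dhcr7 alone rose, 9 genes fell and the median over the 32 was -0.15, where 14.4% of all genes rose and 17.6% fell. With libraries 1 and 2 alone 0 genes were called in limma, where 0.522% of all genes were, and 1 was higher and 2 lower at an unadjusted p under 0.05, against 13.6% and 8.40% over all genes. Lss, Hsd17b7, Dhcr7 and Scd2 stayed called with each library left out in turn. The other 6 all lost the call without Co+Len@OVA+anti-PD1 library 3, with adjusted p reaching 0.122 for Fdps, 0.0846 for Cyp51, 0.0633 for Ebp, 0.0736 for Me1, 0.121 for Mvd and 0.0552 for Nsdhl over the 9 fits. Without that library 1 gene rose and 3 fell, and 2 rose without Control library 3, 3 without Control library 1 and 3 without Lenvatinib+anti-PD1 library 3.

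**Figure D1:**
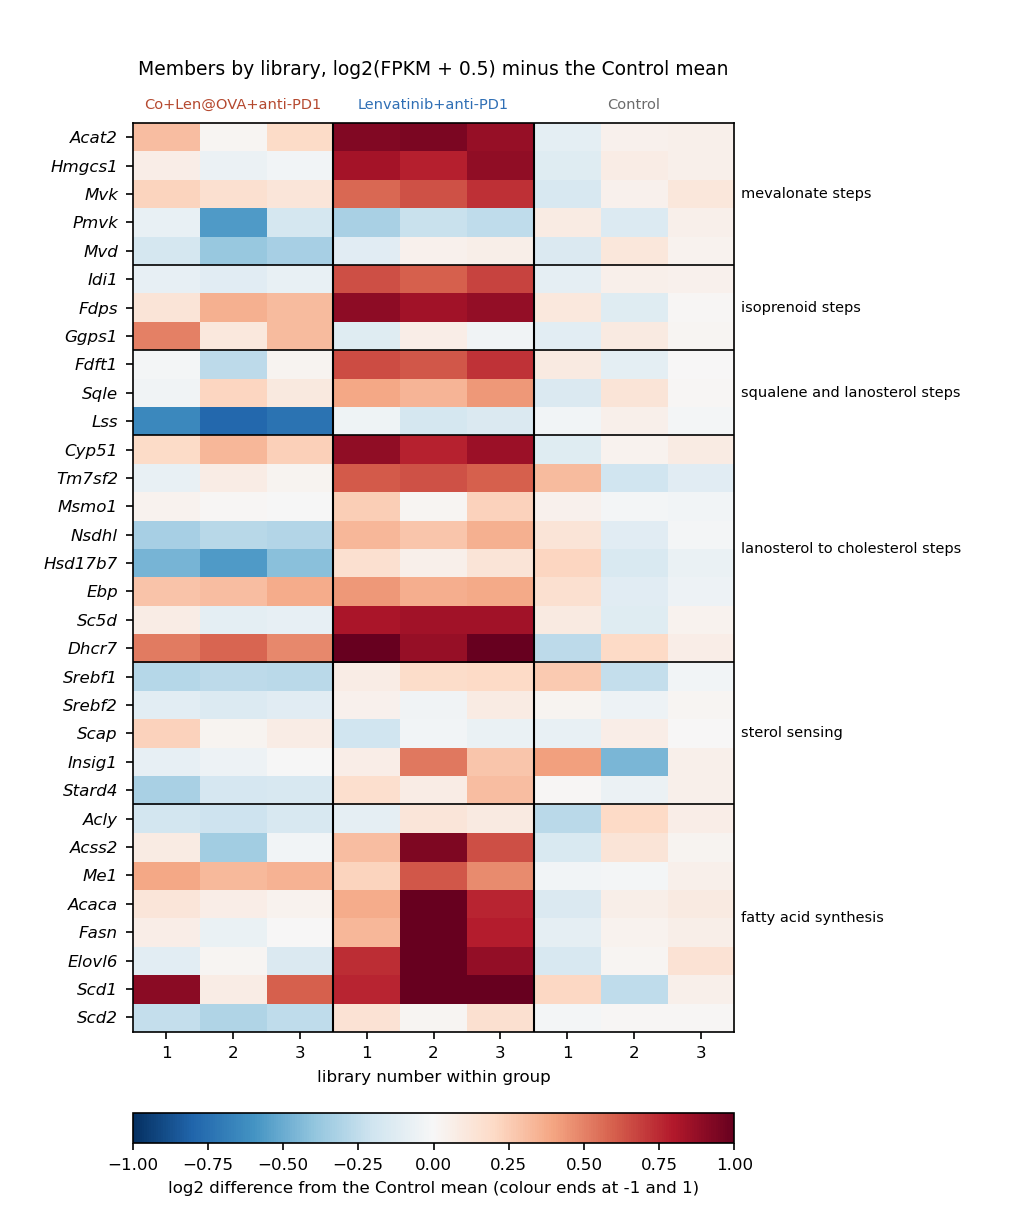
Each cell is 1 gene in 1 library, as log2(FPKM + 0.5) minus the mean of the 3 Control libraries, with colours ending at -1 and 1 and genes grouped by role down the page. The Lenvatinib+anti-PD1 columns are red for most enzymes of both pathways, the Co+Len@OVA+anti-PD1 columns are pale apart from Scd1, Lss, Hsd17b7, Dhcr7 and a few others, and library 2 of Lenvatinib+anti-PD1 is the reddest for fatty acid genes.

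Taken library by library, the median of the 19 sterol and isoprenoid enzymes was even within each group, though single enzymes varied more. Their median log2 ratio to the Control mean was 0.04, 0.01 and 0.03 in the 3 Co+Len@OVA+anti-PD1 libraries, 0.58, 0.60 and 0.59 in the 3 Lenvatinib+anti-PD1 libraries, and -0.03, 0.04 and 0.02 in the 3 Control libraries. The 3 Lenvatinib+anti-PD1 libraries thus stood together, clear of the other 6, which lay between -0.03 and 0.04. Control values are held near 0 because the ratio is taken to their own mean. The median coefficient of variation of these 19 enzymes within a group was 6.67% in Co+Len@OVA+anti-PD1, 3.97% in Lenvatinib+anti-PD1 and 8.32% in Control. The highest value of a single enzyme was 18.4%, 8.94% and 25.4% in these groups, in that order.

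Among the mevalonate steps, Acat2, Hmgcs1 and Mvk rose in Lenvatinib+anti-PD1. Acat2, the cytosolic thiolase that joins acetyl-CoA units, stood at 5.63, 4.52 and 5.17 FPKM in Co+Len@OVA+anti-PD1 libraries 1 to 3, 8.95, 9.04 and 8.58 in Lenvatinib+anti-PD1, and 4.13, 4.62 and 4.65 in Control. All 3 Lenvatinib+anti-PD1 libraries lay above the other 6, and the other groups overlapped. The log2 fold change of Acat2 was 0.92 ± 0.09 (SE) for Lenvatinib+anti-PD1 against Control, with a limma adjusted p of 0.000451, and -0.74 ± 0.09 for Co+Len@OVA+anti-PD1 against Lenvatinib+anti-PD1, with an adjusted p of 0.000706. How fragments shared with its close paralogue Acat3 were assigned is not given in the sources used here. Hmgcs1, the synthase that makes HMG-CoA, had 20.3, 18.5 and 18.9 FPKM in Co+Len@OVA+anti-PD1, 34.8, 33.4 and 36.2 in Lenvatinib+anti-PD1, and 17.7, 20.4 and 20.0 in Control. Its Lenvatinib+anti-PD1 libraries were again apart from all others, and its log2 fold change was 0.83 ± 0.07 against Control (adjusted p = 0.000275). Co+Len@OVA+anti-PD1 against Lenvatinib+anti-PD1 gave -0.84 ± 0.07 for Hmgcs1 (adjusted p = 0.000133). Co+Len@OVA+anti-PD1 against Control gave -0.01 for this gene, with a 95% interval of -0.17 to 0.16.

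Mvk, the kinase that puts the first phosphate on mevalonate, had 3.72, 3.54 and 3.44 FPKM in Co+Len@OVA+anti-PD1, 4.89, 5.13 and 5.50 in Lenvatinib+anti-PD1, and 2.74, 3.23 and 3.42 in Control. Lenvatinib+anti-PD1 lay above the other groups, which came close to each other without overlap. Mvk rose by 0.65 on the log2 scale in Lenvatinib+anti-PD1 against Control (limma adjusted p = 0.0024) and fell in Co+Len@OVA+anti-PD1 against Lenvatinib+anti-PD1 (log2 fold change -0.48, adjusted p = 0.00699). The next steps behaved otherwise. Pmvk, which adds the second phosphate, had 8.61, 5.96 and 7.97 FPKM in Co+Len@OVA+anti-PD1, 7.15, 7.74 and 7.56 in Lenvatinib+anti-PD1, and 9.65, 8.23 and 9.45 in Control, and passed the test in no comparison. Mvd, the decarboxylase that ends this stretch, had 7.31, 6.30 and 6.53 FPKM in Co+Len@OVA+anti-PD1, 7.68, 8.58 and 8.71 in Lenvatinib+anti-PD1, and 7.50, 9.04 and 8.53 in Control. The Co+Len@OVA+anti-PD1 libraries of Mvd were all lowest, and the log2 fold change was -0.29 against Lenvatinib+anti-PD1 (adjusted p = 0.0462) and -0.30 against Control (adjusted p = 0.0402).

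Of the isoprenoid steps, Idi1 and Fdps rose in Lenvatinib+anti-PD1 and Ggps1 did not. Idi1, the isomerase that balances the activated isoprene units, had 7.00, 6.87 and 7.07 FPKM in Co+Len@OVA+anti-PD1, 11.9, 11.5 and 12.3 in Lenvatinib+anti-PD1, and 6.97, 7.73 and 7.72 in Control. The Co+Len@OVA+anti-PD1 and Control values overlapped, below all of Lenvatinib+anti-PD1. Its log2 fold change was 0.64 ± 0.06 for Lenvatinib+anti-PD1 against Control (adjusted p = 0.00045) and -0.73 ± 0.06 for Co+Len@OVA+anti-PD1 against Lenvatinib+anti-PD1 (adjusted p = 0.000133). Fdps, which makes farnesyl diphosphate, the branch point to sterols and to prenylated proteins, had 12.2, 14.4 and 14.0 FPKM in Co+Len@OVA+anti-PD1, 21.1, 20.3 and 20.9 in Lenvatinib+anti-PD1, and 12.0, 10.2 and 11.2 in Control. Fdps thus ran in 3 steps with no overlap. It rose by 0.87 on the log2 scale in Lenvatinib+anti-PD1 against Control (adjusted p = 0.000411) and by 0.27 in Co+Len@OVA+anti-PD1 against Control (adjusted p = 0.0377). The second rise was lost with any of 7 libraries left out.

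Ggps1, which extends farnesyl to geranylgeranyl diphosphate and so leads away from sterols, had 4.88, 3.57 and 4.22 FPKM in Co+Len@OVA+anti-PD1, 2.98, 3.46 and 3.21 in Lenvatinib+anti-PD1, and 3.02, 3.54 and 3.34 in Control. Its Co+Len@OVA+anti-PD1 values were the highest, without overlap, but the log2 fold changes of 0.34 against Lenvatinib+anti-PD1 (limma adjusted p = 0.0607) and 0.31 against Control (adjusted p = 0.0747) did not pass. Lenvatinib+anti-PD1 against Control gave -0.03, with a 95% interval of -0.30 to 0.24.

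The steps from farnesyl units to lanosterol were split. Fdft1, squalene synthase, had 8.72, 7.32 and 9.03 FPKM in Co+Len@OVA+anti-PD1, 14.2, 13.8 and 14.9 in Lenvatinib+anti-PD1, and 9.45, 8.26 and 8.89 in Control. Only the Lenvatinib+anti-PD1 libraries stood apart, with log2 fold changes of 0.66 against Control (adjusted p = 0.0019) and, for Co+Len@OVA+anti-PD1 against Lenvatinib+anti-PD1, -0.75 (adjusted p = 0.0007). Sqle, the epoxidase that commits squalene to the ring, had the highest mean FPKM of the 19 enzymes in each group, with 26.4, 31.6 and 29.2 FPKM in Co+Len@OVA+anti-PD1, 35.6, 34.5 and 36.9 in Lenvatinib+anti-PD1, and 24.5, 29.8 and 27.3 in Control. Co+Len@OVA+anti-PD1 and Control overlapped below Lenvatinib+anti-PD1. Sqle rose by 0.39 on the log2 scale in Lenvatinib+anti-PD1 against Control (adjusted p = 0.0172) and was lower in Co+Len@OVA+anti-PD1 than in Lenvatinib+anti-PD1 (-0.29, adjusted p = 0.0407).

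Lss, the cyclase that closes the rings to form lanosterol, followed another order. It had 2.48, 2.20 and 2.29 FPKM in Co+Len@OVA+anti-PD1, 4.02, 3.63 and 3.71 in Lenvatinib+anti-PD1, and 4.07, 4.32 and 4.09 in Control. The Co+Len@OVA+anti-PD1 libraries were all below the other 6. The log2 fold change was -0.60 ± 0.08 against Lenvatinib+anti-PD1 (limma adjusted p = 0.00108) and -0.72 ± 0.08 against Control (adjusted p = 0.0006), the largest fall of any of the 32 genes in the second comparison. Lenvatinib+anti-PD1 against Control gave -0.12 (adjusted p = 0.290), with an interval of -0.30 to 0.06.

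Of the 8 genes that turn lanosterol into cholesterol, 6 rose in Lenvatinib+anti-PD1 against Control and 6 fell in Co+Len@OVA+anti-PD1 against Lenvatinib+anti-PD1. Cyp51, the demethylase that opens this chain, had 10.8, 12.0 and 11.2 FPKM in Co+Len@OVA+anti-PD1, 17.8, 16.4 and 17.5 in Lenvatinib+anti-PD1, and 8.63, 9.70 and 10.0 in Control. Its 3 groups did not overlap. The log2 fold change of Cyp51 was 0.84 for Lenvatinib+anti-PD1 against Control (adjusted p = 0.000313), -0.58 for Co+Len@OVA+anti-PD1 against Lenvatinib+anti-PD1 (adjusted p = 0.000978) and 0.25 for Co+Len@OVA+anti-PD1 over Control (adjusted p = 0.0319). Sc5d, the desaturase of the B ring, had 8.65, 7.61 and 7.71 FPKM in Co+Len@OVA+anti-PD1, 14.8, 15.0 and 15.0 in Lenvatinib+anti-PD1, and 8.75, 7.46 and 8.37 in Control. The Lenvatinib+anti-PD1 libraries varied by 0.92% (coefficient of variation) and stood clear of the rest, with a log2 fold change of 0.83 against Control (adjusted p = 0.000382). Co+Len@OVA+anti-PD1 against Lenvatinib+anti-PD1 gave -0.87 for Sc5d (adjusted p = 0.000164).

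Dhcr7, which makes cholesterol from its last precursor, had 3.92, 4.10 and 3.79 FPKM in Co+Len@OVA+anti-PD1, 5.85, 5.13 and 5.90 in Lenvatinib+anti-PD1, and 2.07, 3.03 and 2.72 in Control. The groups formed 3 separate steps. Its log2 fold change was 0.99 ± 0.12 for Lenvatinib+anti-PD1 against Control (adjusted p = 0.00139), the largest rise among the 19 sterol and isoprenoid enzymes there, and 0.53 ± 0.12 for Co+Len@OVA+anti-PD1 over Control (adjusted p = 0.0144). Ebp, the isomerase of the ring double bond, was also higher than Control in both treatments, with 15.0, 15.2 and 15.9 FPKM in Co+Len@OVA+anti-PD1, 16.7, 15.8 and 16.0 in Lenvatinib+anti-PD1, and 13.7, 11.2 and 11.8 in Control. The treatments overlapped for Ebp and Control lay below them. Its log2 fold change was 0.32 for Co+Len@OVA+anti-PD1 (adjusted p = 0.0154) and 0.39 for Lenvatinib+anti-PD1 (adjusted p = 0.00869), each against Control. Between the treatments Ebp gave -0.07, with an interval of -0.25 to 0.10.

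Nsdhl and Hsd17b7, which act in removing methyl groups from the ring, were lowest in Co+Len@OVA+anti-PD1. Nsdhl had 5.98, 6.22 and 6.16 FPKM in Co+Len@OVA+anti-PD1, 9.75, 9.41 and 9.92 in Lenvatinib+anti-PD1, and 8.43, 7.05 and 7.53 in Control. It ran in 3 steps without overlap, falling in Co+Len@OVA+anti-PD1 against Lenvatinib+anti-PD1 (-0.62, adjusted p = 0.000663) and against Control (-0.30, adjusted p = 0.0163), and rising in Lenvatinib+anti-PD1 against Control (0.32, adjusted p = 0.0161). Hsd17b7 had 1.75, 1.59 and 1.83 FPKM in Co+Len@OVA+anti-PD1, 2.97, 2.72 and 2.90 in Lenvatinib+anti-PD1, and 3.11, 2.29 and 2.47 in Control. Lenvatinib+anti-PD1 and Control overlapped and Co+Len@OVA+anti-PD1 lay below both, with a log2 fold change of -0.48 against Control (adjusted p = 0.0147) and -0.60 against Lenvatinib+anti-PD1 (adjusted p = 0.00677). Tm7sf2, a reductase of the ring, had 1.68, 1.92 and 1.84 FPKM in Co+Len@OVA+anti-PD1, 3.00, 3.07 and 2.96 in Lenvatinib+anti-PD1, and 2.35, 1.50 and 1.62 in Control. Lenvatinib+anti-PD1 was apart from the rest, and Tm7sf2 rose there against Control (0.61, adjusted p = 0.0158). Msmo1, the oxidase that acts on such methyl groups, had 9.48, 9.30 and 9.21 FPKM in Co+Len@OVA+anti-PD1, 11.0, 9.37 and 10.9 in Lenvatinib+anti-PD1, and 9.50, 9.13 and 9.08 in Control, and passed the test in no comparison.

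**Figure D2:**
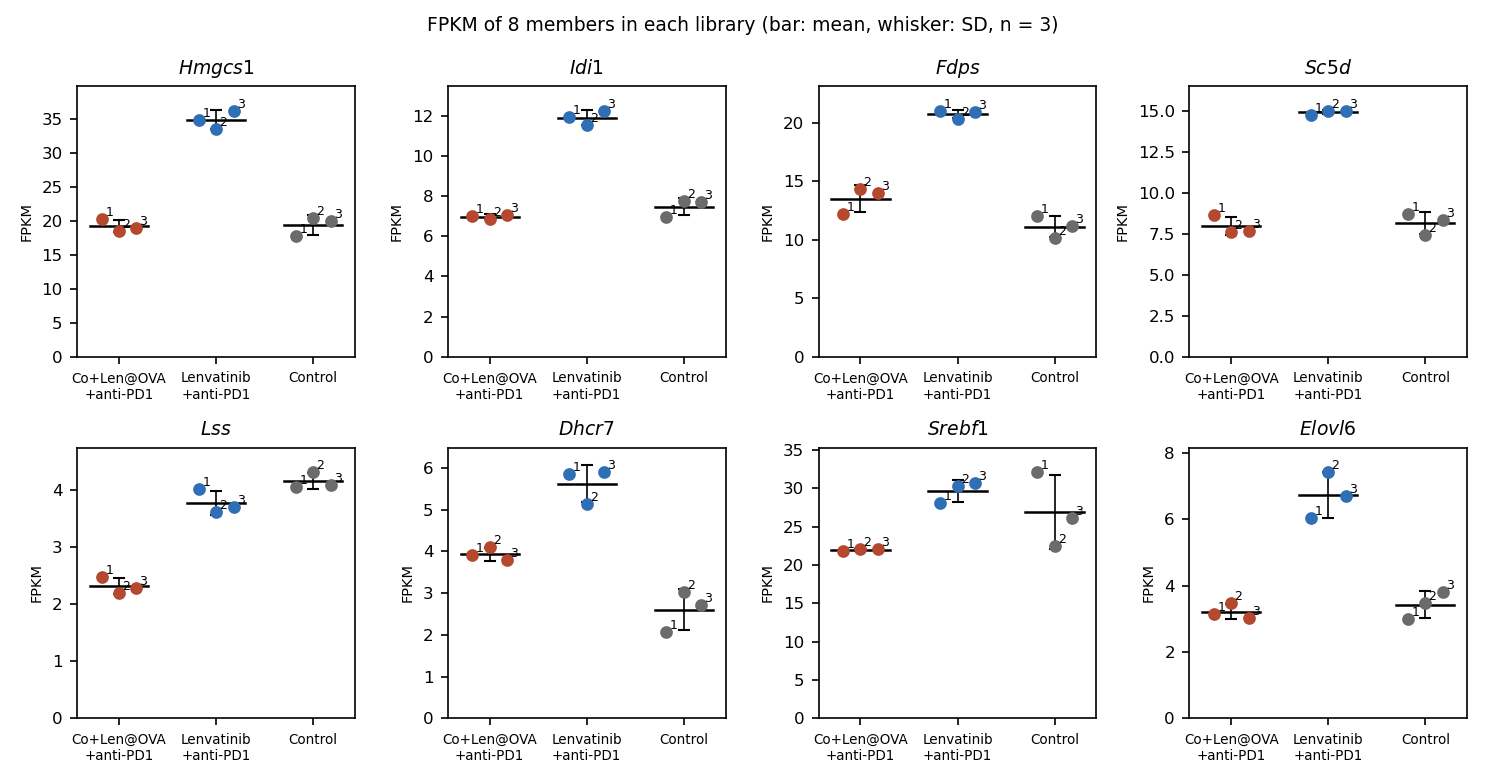
FPKM of 8 genes in each library, with the library number beside each point, a bar at the group mean and a whisker of 1 SD (n = 3). Hmgcs1, Idi1, Sc5d and Elovl6 were high in Lenvatinib+anti-PD1 with the other groups level, Fdps and Dhcr7 form 3 steps, Lss is low in all Co+Len@OVA+anti-PD1 libraries, and those of Control spread for Srebf1 from 22.5 to 32.1 FPKM.

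The 5 sterol sensing genes had few calls. In Lenvatinib+anti-PD1 against Control 0 of the 5 passed, with log2 fold changes between -0.10 for Scap and 0.29 for Insig1. Srebf2, the factor tied most closely to sterol enzymes, had 27.9, 27.4 and 27.7 FPKM in Co+Len@OVA+anti-PD1, 31.0, 29.4 and 31.9 in Lenvatinib+anti-PD1, and 30.6, 29.1 and 30.6 in Control. Lenvatinib+anti-PD1 and Control overlapped for Srebf2, and their log2 fold change of 0.03 had a 95% interval of -0.09 to 0.15. Srebf1, the factor tied most closely to fatty acid genes, had 21.8, 22.1 and 22.1 FPKM in Co+Len@OVA+anti-PD1, 28.1, 30.3 and 30.7 in Lenvatinib+anti-PD1, and 32.1, 22.5 and 26.2 in Control. It was lower in Co+Len@OVA+anti-PD1 than in Lenvatinib+anti-PD1 (-0.42, limma adjusted p = 0.0275), a call lost with any library of either treatment left out, while Control spanned nearly the whole range. The table gives 1 value per gene, so the forms of Srebf1 are not separated.

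Insig1, the retention protein, had 6.54, 6.71 and 6.95 FPKM in Co+Len@OVA+anti-PD1, 7.32, 10.3 and 8.54 in Lenvatinib+anti-PD1, and 9.39, 4.93 and 7.22 in Control. Its Control libraries spanned more than those of either treatment, and it passed in no comparison. Scap, the escort of the SREBP factors, lay between 5.14 and 7.08 FPKM in all 9 libraries and also passed in none. Stard4, a carrier of cholesterol between membranes, fell in Co+Len@OVA+anti-PD1, with 5.02, 5.65 and 5.67 FPKM, against 7.26, 6.77 and 8.06 in Lenvatinib+anti-PD1 (-0.40, limma adjusted p = 0.00973), and had 6.45, 6.11 and 6.63 in Control. The treatments did not overlap.

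Fatty acid genes rose in Lenvatinib+anti-PD1 too, and there the libraries of that group spread widely. Their median coefficient of variation was 4.15% in Co+Len@OVA+anti-PD1, 20.1% in Lenvatinib+anti-PD1 and 11.4% in Control. The median log2 ratio of the 8 genes to the Control mean was 0.07, -0.02 and -0.01 in the Co+Len@OVA+anti-PD1 libraries, 0.32, 0.98 and 0.70 in the Lenvatinib+anti-PD1 libraries, and -0.12, 0.03 and 0.05 in the Control libraries. Lenvatinib+anti-PD1 library 2 was the highest of its group for 7 of the 8 genes and library 1 the lowest for 7 of the 8. Elovl6, the elongase that takes palmitate to stearate, varied least between Lenvatinib+anti-PD1 libraries among the 6 that rose, with 3.14, 3.48 and 3.04 FPKM in Co+Len@OVA+anti-PD1, 6.05, 7.43 and 6.72 in Lenvatinib+anti-PD1, and 3.01, 3.47 and 3.82 in Control. The Lenvatinib+anti-PD1 libraries stood apart, with a log2 fold change of 0.88 against Control (limma adjusted p = 0.00134). Co+Len@OVA+anti-PD1 against Lenvatinib+anti-PD1 gave -0.96 for Elovl6 (adjusted p = 0.000554).

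Fasn, the synthase that builds palmitate, had 24.1, 22.0 and 23.2 FPKM in Co+Len@OVA+anti-PD1, 29.2, 55.5 and 40.3 in Lenvatinib+anti-PD1, and 21.6, 23.7 and 24.0 in Control. The lowest Lenvatinib+anti-PD1 library was above all 6 others, and library 2 was the highest of its own group by a wide margin. The log2 fold change of Fasn was 0.79 ± 0.20 for Lenvatinib+anti-PD1 against Control (limma adjusted p = 0.0224) and -0.79 ± 0.20 for Co+Len@OVA+anti-PD1 against Lenvatinib+anti-PD1 (adjusted p = 0.0195). Acaca, the carboxylase that feeds it malonyl-CoA, had 2.13, 2.02 and 1.98 FPKM in Co+Len@OVA+anti-PD1, 2.62, 4.92 and 3.60 in Lenvatinib+anti-PD1, and 1.68, 2.01 and 2.07 in Control, and library 2 was again the highest of Lenvatinib+anti-PD1. It rose by 0.77 on the log2 scale in Lenvatinib+anti-PD1 against Control (adjusted p = 0.0202). Acss2, which makes acetyl-CoA from acetate and had the lowest mean FPKM of the 32 genes in each group, had 1.37, 0.893 and 1.24 FPKM in Co+Len@OVA+anti-PD1, 1.69, 2.88 and 2.27 in Lenvatinib+anti-PD1, and 1.09, 1.43 and 1.30 in Control. Lenvatinib+anti-PD1 was above all others for Acss2, which rose by 0.63 on the log2 scale against Control (adjusted p = 0.0428).

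The desaturases Scd1 and Scd2, which put the double bond into stearate and palmitate, parted. Scd1 had 64.3, 35.8 and 51.9 FPKM in Co+Len@OVA+anti-PD1, 58.3, 222 and 122 in Lenvatinib+anti-PD1, and 39.4, 28.5 and 35.3 in Control. Lenvatinib+anti-PD1 was above Control throughout but overlapped Co+Len@OVA+anti-PD1. The log2 fold change of Scd1 was 1.76 ± 0.44 for Lenvatinib+anti-PD1 against Control (limma adjusted p = 0.0236) and -1.23 ± 0.44 for Co+Len@OVA+anti-PD1 against Lenvatinib+anti-PD1, which did not pass (adjusted p = 0.0672). Scd2 had 124, 118 and 122 FPKM in Co+Len@OVA+anti-PD1, 161, 147 and 162 in Lenvatinib+anti-PD1, and 143, 146 and 147 in Control, and was the most abundant of the 32 genes in every group. It was lowest in Co+Len@OVA+anti-PD1, by -0.37 against Lenvatinib+anti-PD1 (adjusted p = 0.00271) and -0.26 against Control (adjusted p = 0.0114). The ratio of Scd1 to Scd2 was 0.520, 0.303 and 0.425 in Co+Len@OVA+anti-PD1, 0.362, 1.51 and 0.753 in Lenvatinib+anti-PD1, and 0.275, 0.194 and 0.241 in Control, so that it passed 1 only in Lenvatinib+anti-PD1 library 2. How fragments that match both paralogues were split is not given in the sources used here.

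Me1, the malic enzyme that supplies NADPH, was higher than Control in both treatments, with 46.7, 44.7 and 45.4 FPKM in Co+Len@OVA+anti-PD1, 41.6, 55.2 and 49.6 in Lenvatinib+anti-PD1, and 34.9, 35.2 and 36.9 in Control. Its log2 fold change was 0.35 for Co+Len@OVA+anti-PD1 (limma adjusted p = 0.0249) and 0.44 for Lenvatinib+anti-PD1 (adjusted p = 0.0139), each against Control, and the treatments overlapped. Acly, which makes cytosolic acetyl-CoA from citrate, had 32.9, 32.5 and 33.5 FPKM in Co+Len@OVA+anti-PD1, 35.3, 40.8 and 39.9 in Lenvatinib+anti-PD1, and 31.1, 43.1 and 39.4 in Control, and passed in no comparison.

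Markers of other cells also varied between libraries, in part in the same order as the fatty acid genes. The summed level of 11 adipocyte markers was 234, 46.5 and 139 FPKM in Co+Len@OVA+anti-PD1, 49.6, 602 and 273 in Lenvatinib+anti-PD1, and 9.02, 11.8 and 19.8 in Control, where 2 of the 11 were at 0 in library 1 and 4 in library 2. Adipoq, made by adipocytes, had 8.78, 1.52 and 4.97 FPKM in Co+Len@OVA+anti-PD1, 0.174, 17.6 and 6.20 in Lenvatinib+anti-PD1, and 0.0948, 0 and 0.242 in Control. Within Lenvatinib+anti-PD1 the adipocyte sum had the same order of libraries as Fasn, Acaca, Scd1, Elovl6, Acss2, Me1 and Acly, but not Scd2. Within Co+Len@OVA+anti-PD1 it had the order of Fasn, Scd1, Acss2, Me1 and Scd2 but not of Acaca, Elovl6 and Acly. Within Control it had the order of Fasn, Acaca, Elovl6, Me1 and Scd2 but not of Scd1, Acss2 and Acly. Between groups, Co+Len@OVA+anti-PD1 library 1 (sum 234) had 24.1 FPKM of Fasn, and Lenvatinib+anti-PD1 library 3 (sum 273) had 40.3. These are single libraries that also differ in treatment, so the parts of treatment and of adipocytes cannot be told apart in this pair. The sum of 12 skeletal muscle markers was 45.5, 55.4 and 53.0 FPKM in Co+Len@OVA+anti-PD1, 39.5, 4780 and 1902 in Lenvatinib+anti-PD1, and 7.88, 9.99 and 51.9 in Control, where 4 of the 12 were at 0 in library 1 and 2 in library 2. In Lenvatinib+anti-PD1 library 1 the adipocyte sum was the lowest of its group but above all Control libraries, and Fasn, Acaca, Elovl6 and Scd1 were above all Control libraries there too. Leaving out the library of each group with the highest adipocyte sum (Co+Len@OVA+anti-PD1 1, Lenvatinib+anti-PD1 2 and Control 3), a setting chosen after seeing the data, gave Lenvatinib+anti-PD1 against Control a log2 fold change of 0.59 for Fasn (limma adjusted p = 0.121), 0.61 for Acaca (adjusted p = 0.138), 1.32 for Scd1 (adjusted p = 0.143), 0.88 for Elovl6 (adjusted p = 0.0459) and 0.89 for Hmgcs1 (adjusted p = 0.0277). In that fit 7 of the 32 genes were higher in Lenvatinib+anti-PD1 than in Control and 11 were lower in Co+Len@OVA+anti-PD1 than in Lenvatinib+anti-PD1, where 2.05% and 4.44% of all genes were. That fit has 3 residual degrees of freedom. The Lenvatinib+anti-PD1 libraries kept in it still had higher adipocyte sums (49.6 and 273 FPKM) than the Control libraries kept (9.02 and 11.8). The part of adipocytes and muscle in these values was not tested.

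**Figure D3:**
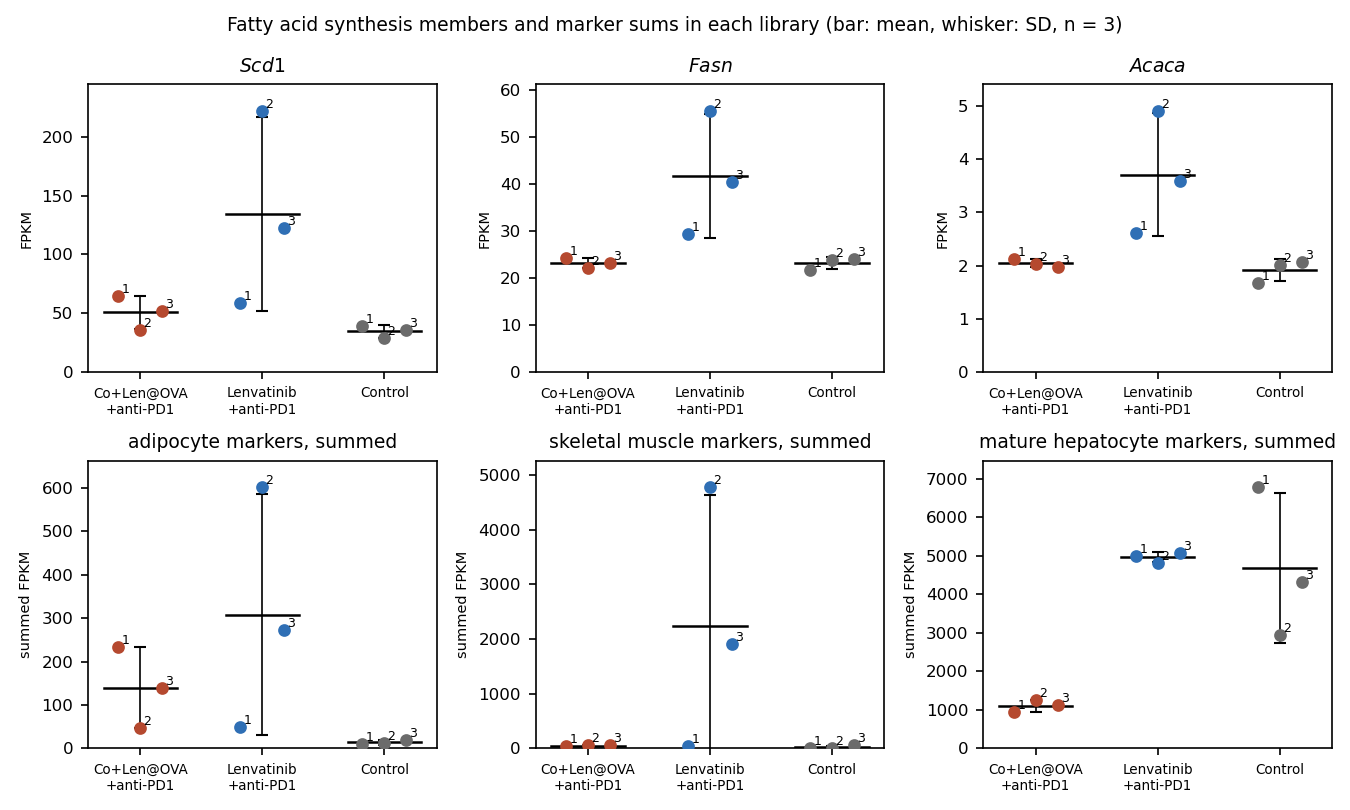
FPKM per library of fatty acid genes and of summed adipocyte, skeletal muscle and mature hepatocyte markers, with library numbers, group means as bars and 1 SD as whiskers (n = 3), cut off at 0. Within Lenvatinib+anti-PD1, library 2 is highest and library 1 lowest for Fasn, Acaca and Scd1 as for the adipocyte and muscle sums, while hepatocyte markers are level there and low in Co+Len@OVA+anti-PD1.

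Mature hepatocyte markers differed between the groups as well, not always as the members did. Their sum over 21 genes was 930, 1252 and 1124 FPKM in Co+Len@OVA+anti-PD1, 4992, 4810 and 5067 in Lenvatinib+anti-PD1, and 6781, 2939 and 4309 in Control. Of the 21, 20 fell in Co+Len@OVA+anti-PD1 against Lenvatinib+anti-PD1 and 21 fell against Control. Of the 19 sterol and isoprenoid enzymes, 15 fell in the first comparison, and 4 were higher and 4 lower in the second. Over all genes 12.0% fell in the first, and 20.9% rose and 12.7% fell in the second. In Lenvatinib+anti-PD1 against Control, 4 of the 21 markers rose and 1 fell, where 13.8% of all genes rose and 9.87% fell. At an unadjusted p under 0.05, for which no share of all genes was computed, 11 markers were higher and 1 lower. The median log2 fold change of the markers was 1.00, beside 0.61 for the 19 enzymes. Control library 1, with the highest hepatocyte sum of the 9, was the lowest of its group for 10 of the 19 enzymes and the highest for 9. Summed T cell markers were 352, 237 and 287 FPKM in Co+Len@OVA+anti-PD1, 106, 102 and 109 in Lenvatinib+anti-PD1, and 30.5, 123 and 94.4 in Control, and summed macrophage markers were 1165, 990 and 1098 FPKM in Co+Len@OVA+anti-PD1, 308, 340 and 324 in Lenvatinib+anti-PD1, and 224, 1037 and 759 in Control. Control library 1 had the lowest T cell and macrophage sums of the 9. The part of cell makeup in the members' values was not tested.

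**Figure D4:**
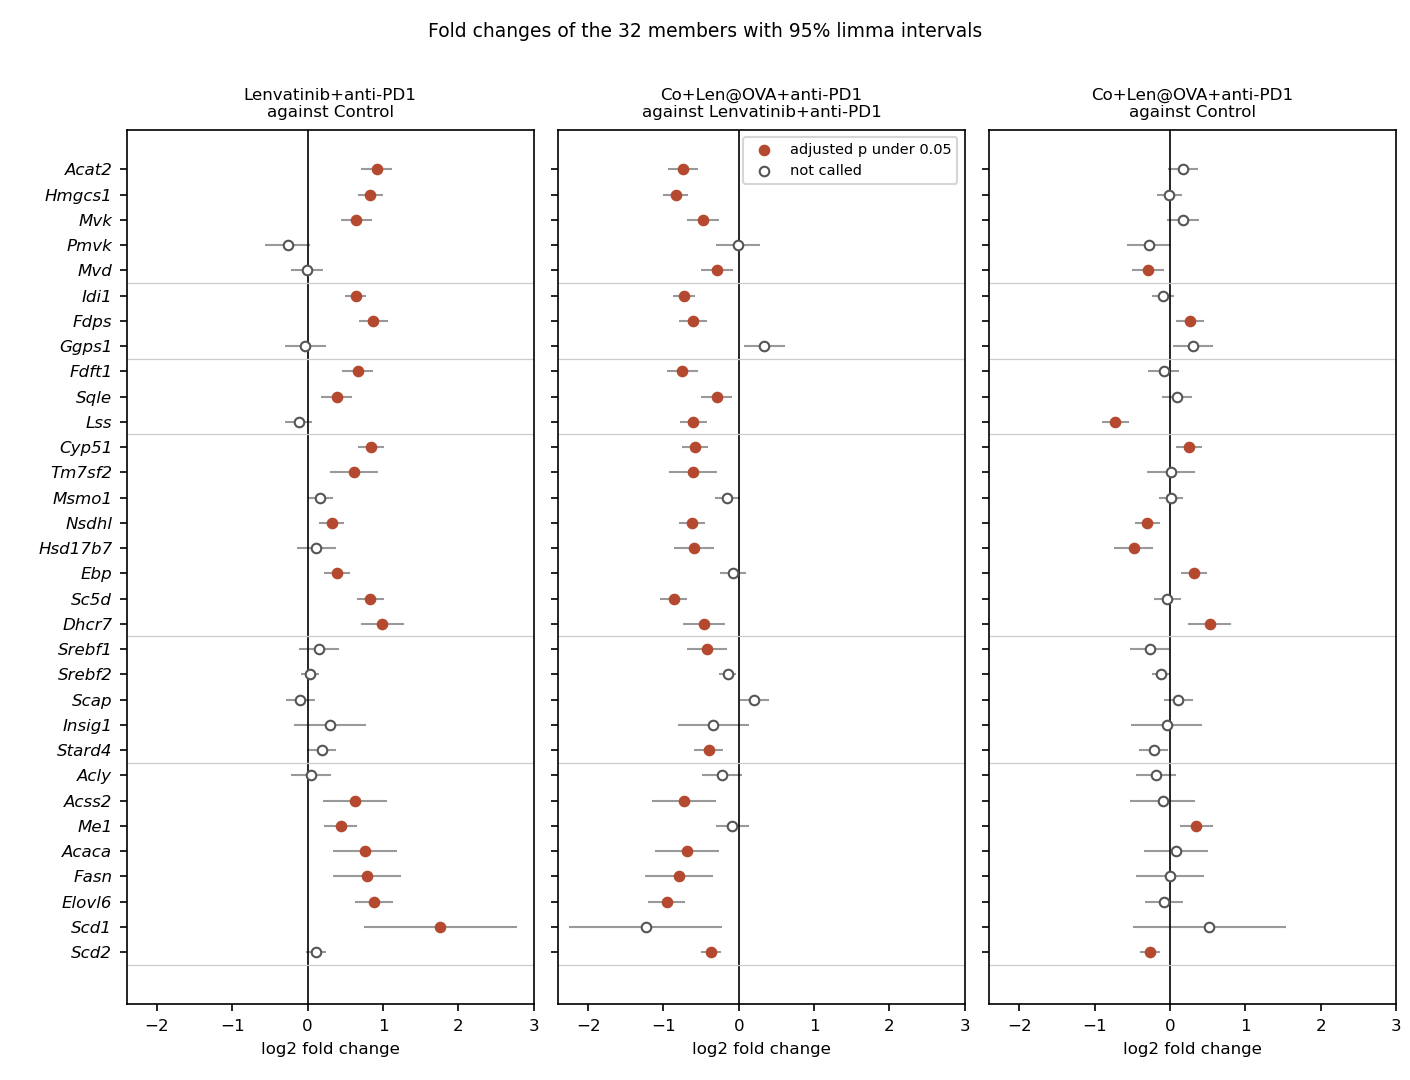
Log2 fold changes of the 32 genes on log2(FPKM + 0.5) with 95% intervals from limma, 1 panel per comparison, filled points for an adjusted p under 0.05 and open points for the rest. In Lenvatinib+anti-PD1 against Control 19 filled points lie above 0, in Co+Len@OVA+anti-PD1 against Lenvatinib+anti-PD1 22 lie below it, and in Co+Len@OVA+anti-PD1 against Control 5 lie on each side.

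Related genes outside the 32 were taken from lists, whose counts stand beside 13.8% of all genes higher and 9.87% lower in Lenvatinib+anti-PD1 against Control, and, for Co+Len@OVA+anti-PD1 against Lenvatinib+anti-PD1, 17.3% higher and 12.0% lower. Of 14 other genes of the mevalonate and isoprenoid routes, 5 rose and 1 fell in Lenvatinib+anti-PD1 against Control, and 1 rose and 4 fell in Co+Len@OVA+anti-PD1 against Lenvatinib+anti-PD1. Of 22 genes of sterol uptake, storage and SREBP control, 2 rose and 6 fell in Lenvatinib+anti-PD1 against Control. In Co+Len@OVA+anti-PD1 against Lenvatinib+anti-PD1, 6 of the 22 rose and 3 fell. Insig2, the other retention protein, had 11.3, 10.2 and 11.0 FPKM in Co+Len@OVA+anti-PD1, 11.4, 12.0 and 11.3 in Lenvatinib+anti-PD1, and 24.9, 16.1 and 19.1 in Control. It fell in both treatments against Control, by 0.84 on the log2 scale in Co+Len@OVA+anti-PD1 (adjusted p = 0.00336) and by 0.75 in Lenvatinib+anti-PD1 (adjusted p = 0.00692).

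Among 12 LXR and sterol efflux genes 2 rose and 0 fell in Lenvatinib+anti-PD1 against Control by limma. At an unadjusted p under 0.05, for which no share of all genes was computed, 3 were higher and 1 lower. Of the 12 log2 fold changes there 4 were above 0 and 8 below, with a median of -0.16. The pair that rose, Abcg5 and Abcg8, form the transporter that passes sterols into bile. Both fell in Co+Len@OVA+anti-PD1 against Lenvatinib+anti-PD1, with log2 fold changes of -2.65 and -2.01 (limma adjusted p = 2.15e-05 and 5.37e-05). They were the 2 of the 12 that fell there, and 2 others rose. Abcg5 had 0.065 to 0.111 FPKM in Co+Len@OVA+anti-PD1, 3.07 to 3.25 in Lenvatinib+anti-PD1 and 0.450 to 0.860 in Control. Abcg8 had 0.026 to 0.032, 1.46 to 1.84 and 0.212 to 0.281 in these groups, in that order. At such low levels the added 0.5 FPKM weighs on the fold changes. Of 29 other genes of fatty acid synthesis tested, 13 rose and 1 fell in Lenvatinib+anti-PD1 against Control, and 2 rose and 12 fell in Co+Len@OVA+anti-PD1 against Lenvatinib+anti-PD1. Fads2, the desaturase that starts the making of polyunsaturated fatty acids, had 14.5, 20.0 and 17.4 FPKM in Co+Len@OVA+anti-PD1, 29.9, 30.0 and 32.0 in Lenvatinib+anti-PD1, and 14.1, 12.8 and 14.5 in Control. Its Lenvatinib+anti-PD1 libraries were all higher and close together, with a log2 fold change of 1.12 against Control (adjusted p = 0.000488). Mlxipl, the sugar-responsive factor that also acts on fatty acid genes, had 0.783, 1.33 and 1.16 FPKM in Co+Len@OVA+anti-PD1, 4.72, 5.69 and 5.07 in Lenvatinib+anti-PD1, and 2.94, 0.925 and 1.36 in Control, and rose by 1.43 on the log2 scale in Lenvatinib+anti-PD1 against Control (adjusted p = 0.0118). Of 14 triglyceride assembly genes tested, 5 rose and 1 fell in that comparison. In Co+Len@OVA+anti-PD1 against Lenvatinib+anti-PD1 limma gave 0 of these higher and 6 lower. The counts were also 0 and 6 at an unadjusted p under 0.05, again with no share of all genes computed.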

How the data were processed

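Whole tumours were profiled by poly(A), strand-specific RNA sequencing in 9 libraries, 3 tumours per group per the labels and design text. The deposited table holds FPKM values made by the authors, per the file headers, although it is presented as raw counts. Per the submitters' processing notes, the tools included StringTie, fastp and edgeR, with no roles stated. Not given in the sources used here are the aligner, the build and the annotation. Whole fragments were not recovered, since 24.3% to 31.4% of low values per library lay within 0.05 of a whole number, so no count test was run and read depth is unknown.

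Genes averaging 0.5 FPKM or more over the libraries were fitted with limma 3.58.1 in R 4.3.3 on log2(FPKM + 0.5), with a trended, robust variance prior, 9 libraries in 1 fit (6 residual degrees of freedom) and 3 contrasts. P-values were adjusted by Benjamini-Hochberg over all genes tested, at 0.05, with 95% intervals. Fold changes on this scale understate those of low genes. The fit was tested on simulated data. Libraries were grouped by their labels, and the replicate numbers did not pair them. Motifs were searched in RefSeq promoter windows. Other pseudocounts, filters, scalings, variance models, sample sets and a replicate block were tried, as were fits without the third libraries or without single libraries.

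The members and lists were chosen with earlier results of these data known. Any member could be named, with values per library for those called in a comparison without overlap and for 1 uncalled gene per role. From each related list, the 4 genes with the smallest adjusted p per comparison and a few key genes of the pathways could be named. Some genes of these lists are not reported here.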

Additional observations from a re-analysis of the deposited data

How the results depend on the processing

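In Co+Len@OVA+anti-PD1 against Control, 5 of the 32 genes higher became 3 with no filter on low values, 1 with median-of-ratios scaling, 2 with upper quartile scaling, 2 with only the 2 groups in the fit and 0 with libraries 1 and 2 alone, and the 5 lower became 9, 8, 2 and 0 under the last 4 of these. With libraries 1 and 2 alone, the 19 genes higher in Lenvatinib+anti-PD1 than in Control became 0 and the 22 that fell in Co+Len@OVA+anti-PD1 against Lenvatinib+anti-PD1 became 1. Without the 3 libraries highest in adipocyte markers, a setting chosen after seeing the data, these counts were 7 and 11, and Co+Len@OVA+anti-PD1 against Control gave 0 higher and 1 lower. Both of these settings keep 6 of the 9 libraries and 3 residual degrees of freedom.

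Leaving out 1 library at a time gave, in Co+Len@OVA+anti-PD1 against Control, 1 to 4 genes higher and 3 to 6 lower, 11 to 19 higher and 0 to 1 lower in Lenvatinib+anti-PD1 against Control, and, between the treatments, 0 to 1 higher and 14 to 24 lower with Co+Len@OVA+anti-PD1 than with Lenvatinib+anti-PD1. Over all genes these fits gave 10.6% to 23.9% higher and 8.18% to 13.6% lower, 6.83% to 15.4% higher and 5.39% to 17.3% lower, and 7.92% to 27.4% higher and 7.29% to 15.4% lower in these comparisons, in that order. Same-numbered libraries did not deviate together (correlations of -0.248 to 0.0785), so the numbers are not taken as pairs. With the replicate number as a block, the counts in Co+Len@OVA+anti-PD1 against Control were 3 genes higher and 4 lower, 17 higher in Lenvatinib+anti-PD1 against Control, and 18 fell for Co+Len@OVA+anti-PD1 against Lenvatinib+anti-PD1, where 26.2%, 17.9% and 21.5% of all genes were called in either direction. No called value changed direction in any setting, and pseudocounts of 0.1 and 1 changed none of 96 calls. Over all genes, 33.6%, 23.7% and 29.4% called in Co+Len@OVA+anti-PD1 against Control, Lenvatinib+anti-PD1 against Control and Co+Len@OVA+anti-PD1 against Lenvatinib+anti-PD1 became 12.9%, 9.08% and 11.8% with no filter, where 32761 genes were tested, 0.522%, 0.346% and 2.41% with libraries 1 and 2 alone, and 6.92%, 3.10% and 7.27% without the libraries highest in adipocyte markers. With only 2 groups in the fit, 21.4% were called in Co+Len@OVA+anti-PD1 against Control. The causes were not tested. Precision is limited by 3 tumours per group from 1 line, unknown depth and whole tissue.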
